A study of Homo sapiens with 8 samples.

Results

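KO 5H5 is a clone of the human ovarian carcinoma line SKOV3 with its PDE10A gene knocked out, and the comparison sets it against the parental SKOV3 culture. All libraries labelled with either line were used, 2 of KO 5H5 and 2 of parental cells, which makes 4 of the 8 RNA-seq libraries of the series. The other 4 come from KO 2F4, another PDE10A knockout clone, and from EV 1B9, a clone made with an empty vector, with 2 libraries each. They share the estimate of spread and enter direct contrasts with KO 5H5. The cells of every line were untreated, were kept in McCoy's medium with serum and antibiotics, and gave RNA at separate passages. KO 5H5 is 1 clone, the parental culture is not described as a clone, and the sources used here do not give the method or position of the edit. Effects of the edit and of picking 1 clone therefore cannot be told apart in this comparison, and p-values measure the spread between passages, not between clones.

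PDE10A is a phosphodiesterase that breaks down the second messengers cAMP and cGMP, which activate the kinases PKA and PKG. PKA phosphorylates CREB, a factor that binds cAMP response elements in promoters. The series title names β-catenin, which drives Wnt target genes together with TCF/LEF factors, and RAS, which signals through RAF, MEK and ERK to feedback genes of the DUSP and SPRY families.

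Counts assigned to genes were 20601319 and 25525971 in KO 5H5 1 and 2, against 15483683 and 21482210 in parental 1 and 2. Parental 1 stood apart, since 44.6% of its counted reads lay outside genes or had no unique gene, against 24.1% to 26.9% in the other 3 libraries. It also had no count for genes with over 130 counts in parental 2, such as the endosomal adaptor APPL1 with 0 counts in parental 1 and 150 in parental 2. Results that rest on parental 1 are therefore also given without it. The libraries also differed in how expression, relative to each gene's mean over all 8 libraries, ranked with GC content. This Spearman correlation was 0.287 and -0.389 in KO 5H5 1 and 2 and 0.443 and 0.239 in parental 1 and 2. It was -0.484 and -0.506 in the EV 1B9 libraries and 0.067 and 0.454 in those of KO 2F4. Levels below are TMM-scaled CPM, that is counts relative to a library size corrected for composition. They are not scaled by gene length, so levels of different genes are not compared.

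PDE10A itself was low in the clone. It had 4 and 12 counts in the KO 5H5 libraries, against 120 and 55 in parental cells, which corresponds to 0.229 and 0.438 CPM in KO 5H5 and 9.04 and 2.54 CPM in parental cells. The means were 0.333 ± 0.148 CPM in KO 5H5 and 5.79 ± 4.59 CPM in parental cells (SD, n = 2 each), and both KO 5H5 libraries lay below both parental libraries. On the log2 scale the fold change amounted to -4.06 (SE 1.07), with an adjusted p of 0.145. That p is from the quasi-likelihood test of edgeR, adjusted over all tested genes after Benjamini and Hochberg, and it misses the threshold of 0.05. Without parental 1 the log2 fold change was -2.87 (adjusted p 0.482) and without parental 2 it was -4.64 (adjusted p 0.000102), so the call depends on which parental libraries enter. DESeq2 on the same counts gave -4.17 (adjusted p 0.00545). Against EV 1B9, which had 4.94 and 8.87 CPM, the direct contrast was -4.32 (adjusted p 0.0351, edgeR). It did not pass without KO 5H5 1 (adjusted p 0.0503) or with offsets for GC content and length (-3.67, adjusted p 0.0579). KO 2F4 had 0.196 and 2.26 CPM, and KO 5H5 did not differ from it past the threshold (log2 fold change -1.79, adjusted p 0.558, edgeR). The gene spans chr6:165327287-165988078 on the minus strand of GRCh38, and counts over the whole gene do not show where the edit lies.

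Few genes passed the test, and most of those were lower in the knockout clone. Of 15551 tested genes, 115 (0.74%) differed between KO 5H5 and parental cells, 18 (0.116%) higher and 97 (0.624%) lower in KO 5H5. The rises ranged from 2.14 to 6.13 on the log2 scale with a median of 3.10, and the falls from -1.94 to -11.86 with a median of -4.32, while the median over all tested genes was 0.01. The value of -11.86 belongs to a gene without a count in KO 5H5, so it is a fitted value and not a measured extent. Protein-coding genes made up 110 of the 115. At an unadjusted p under 0.05 there were 1378 genes. The balance of higher and lower calls depended on a correction for GC content and on single libraries. Higher genes were 15.7% of the calls, but 27.9% of 165 with offsets for GC content and length. They were 9 of 115 calls without parental 1, 452 of 741 without parental 2, 33 of 121 without KO 5H5 1 and 25 of 95 without KO 5H5 2. All 115 called genes had no overlap between the libraries of the lines, as did 44.7% of all tested genes.

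**Figure D1:**
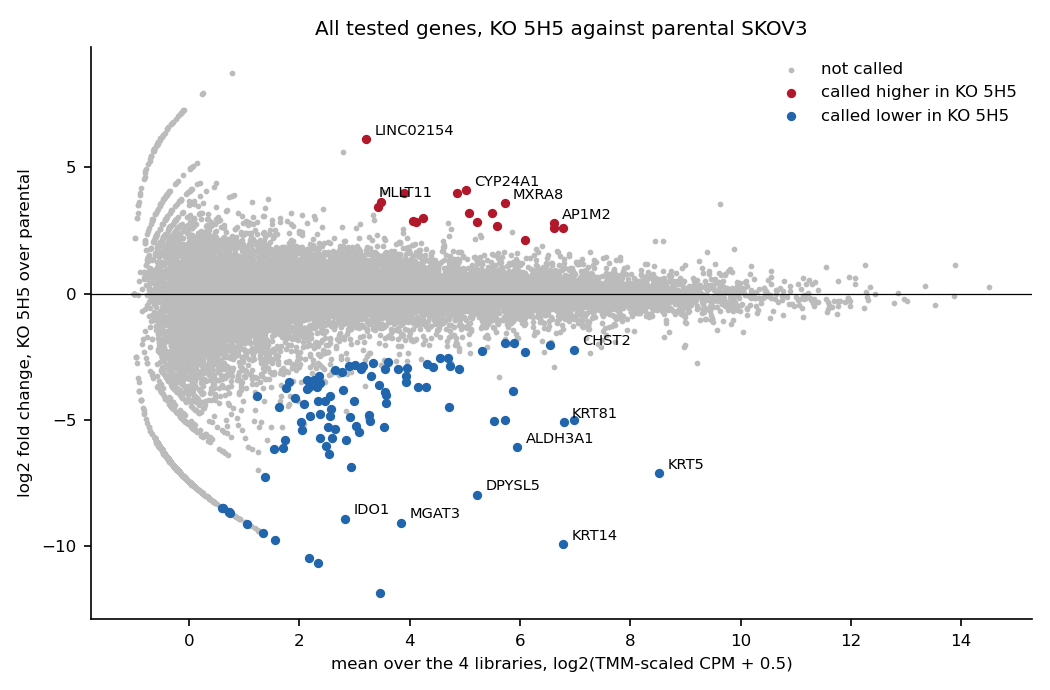
Log2 fold change of KO 5H5 over parental cells (vertical) against the mean level over the 4 libraries as log2(TMM-scaled CPM + 0.5) (horizontal), 1 point for each of 15551 tested genes. The 18 genes called higher are red and the 97 called lower are blue. The blue points reach further from 0, with a fitted value of -11.86 for a gene without a count in KO 5H5.

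The 15 largest rises among protein-coding genes had varied roles. CYP24A1 (chr20:54153449-54173973), the hydroxylase that inactivates vitamin D, had 44.8 and 76.2 CPM in KO 5H5, against 4.37 and 2.64 CPM in parental cells. Both KO 5H5 libraries were far above both parental ones, and the log2 fold change was 4.12 (SE 0.54, adjusted p 0.00289, edgeR). MLLT11 (chr1:151057758-151068497), first known as a fusion partner of KMT2A in leukaemia, had 46.4 and 61.6 CPM in KO 5H5, against 2.56 and 4.21 CPM in parental cells. It rose by 3.98 (SE 0.51, adjusted p 0.00154, edgeR). MXRA8, a cell surface protein that serves some alphaviruses as a receptor, had 85.0 and 108 CPM in KO 5H5, against 9.49 and 6.66 CPM in parental cells (log2 fold change 3.58, SE 0.45, adjusted p 0.00146, edgeR). COPZ2, a subunit of the coatomer that coats Golgi vesicles, had 68.6 and 51.0 CPM in KO 5H5, against 5.58 and 7.35 CPM in parental cells (log2 fold change 3.20, adjusted p 0.00292, edgeR). For all of these genes the lines were far apart relative to the spread of their libraries.

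Genes of the cytoskeleton and of membranes followed. LIMA1, which crosslinks actin filaments, had 67.6 and 93.2 CPM in KO 5H5, against 5.05 and 12.2 CPM in parental cells (log2 fold change 3.21, adjusted p 0.00719, edgeR). AP1M2, the epithelial μ subunit of a clathrin adaptor, had 196 and 144 CPM in KO 5H5, against 34.1 and 14.8 CPM in parental cells (log2 fold change 2.80, adjusted p 0.0154, edgeR). DYSF, which takes part in membrane repair, had 112 and 225 CPM in KO 5H5, against 21.2 and 33.9 CPM in parental cells (log2 fold change 2.61, adjusted p 0.0364, edgeR). EDIL3, a matrix protein that binds integrins, had 15.6 and 38.5 CPM in KO 5H5, against 0.678 and 2.68 CPM in parental cells (log2 fold change 3.97, adjusted p 0.043, edgeR). HSPB8, a small heat shock protein, had 17.8 and 19.6 CPM in KO 5H5, against 1.21 and 2.17 CPM in parental cells (log2 fold change 3.44, adjusted p 0.0201, edgeR). The remaining rises among the 15 lay between 2.69 and 3.64. They were ARSI, a sulfatase, APBB1IP, which links Rap1 to integrin activation, MYO15B, RAB11FIP1, which acts in recycling endosomes, the cancer-testis gene SPANXB1 and NRSN2. SPANX genes are nearly identical to each other, so the count of SPANXB1 is uncertain.

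Calls of rises rested on parental 1 more than those of falls, a contrast that was smaller with offsets for GC content and length. Without that library EDIL3, ARSI, HSPB8, APBB1IP, RAB11FIP1, SPANXB1, NRSN2 and DYSF no longer passed, with log2 fold changes of 2.32 (DYSF) to 3.35 (EDIL3) and adjusted p of 0.0600 (NRSN2) to 0.221 (DYSF, edgeR). Without KO 5H5 2, EDIL3 had an adjusted p of 0.1004 and DYSF of 0.0993. The other 7 rises of the 15 and all 15 largest falls still passed without parental 1. EPAS1, the hypoxia-inducible factor HIF-2α, was outside the naming rule and was chosen after its values were seen. It had 157 and 219 CPM in KO 5H5, against 22.4 and 39.4 CPM in parental cells (log2 fold change 2.61, adjusted p 0.0154, edgeR), and without parental 1 its adjusted p was 0.158. The noncoding RNA LINC02154 on chromosome X had 16.5 and 18.2 CPM in KO 5H5, against 0.377 and 0.139 CPM in parental cells. Among called genes it had the largest rise, 6.13 as a log2 fold change, with an SE of 0.76 and an adjusted p of 0.00179 (edgeR).

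**Figure D2:**
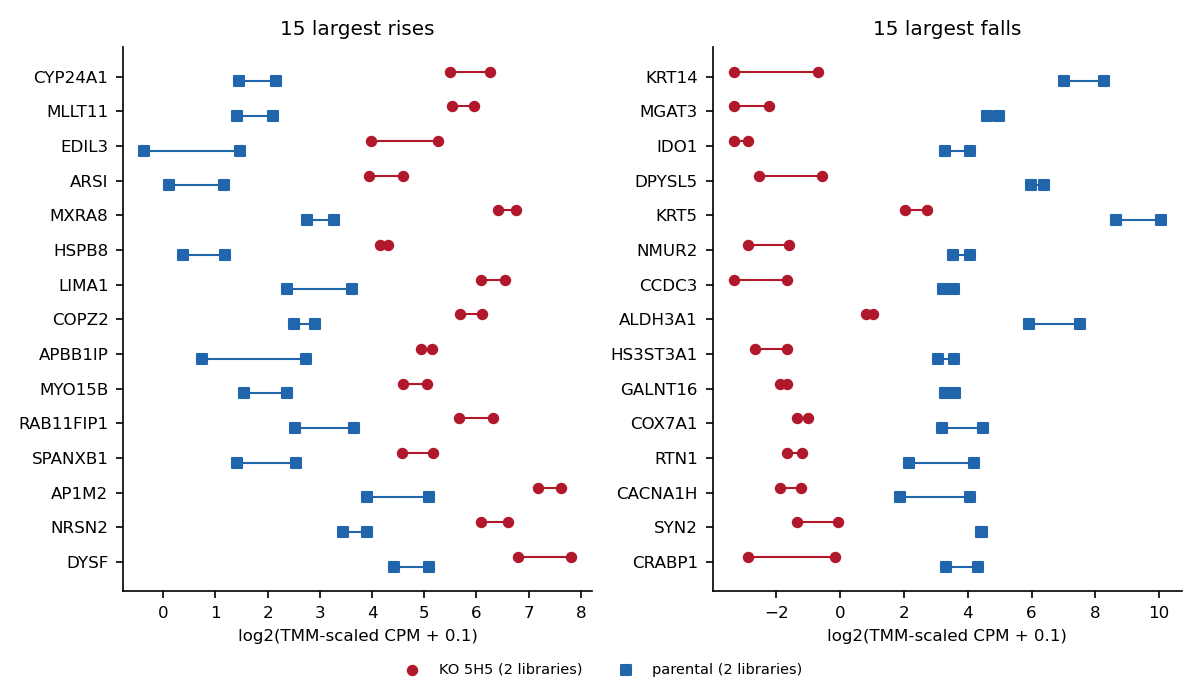
Level in each library, as log2(TMM-scaled CPM + 0.1), of the 15 largest rises (left) and the 15 largest falls (right) among called protein-coding genes. Red circles are the 2 KO 5H5 libraries and blue squares the 2 parental libraries, joined by a line. The lines do not overlap for any of the 30 genes, and the gap is wider for most falls than for the rises.

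Basal keratins stood among the deepest falls. KRT14 (chr17:41582279-41586921), a type I keratin that pairs with KRT5 in basal cells, had 0.515 and 0 CPM in KO 5H5, against 311 and 129 CPM in parental cells. Its log2 fold change was -9.92 (SE 1.05, adjusted p 0.000734, edgeR). KRT5 (chr12:52514575-52520687) had 4.003 and 6.57 CPM in KO 5H5, against 403 and 1056 CPM in parental cells, and fell by 7.10 (SE 0.80, adjusted p 0.000772, edgeR). The transcript of KRT5 thus remained detectable in both KO 5H5 libraries, while KRT14 had no count in KO 5H5 2. In these bulk samples fewer cells with a transcript and less of it per cell cannot be told apart. KRT81, a hair keratin, had 6.52 and 6.06 CPM in KO 5H5, against 310.5 and 119 CPM in parental cells (log2 fold change -5.09, SE 0.58, adjusted p 0.000772, edgeR). KRT6A, a keratin of wounded epidermis, had 0.343 and 0.110 CPM in KO 5H5, against 6.03 and 3.84 CPM in parental cells (log2 fold change -4.49, adjusted p 0.0234, edgeR). Without KO 5H5 2 the adjusted p of KRT6A was 0.0778. Of 16 tested keratins these 4 were called, all lower, beside 0.624% of all tested genes, and the median log2 fold change over the 16 was -0.92.

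The other 12 tested keratins were not called. KRT8, chosen after its values were seen, had 7261 and 6152 CPM in KO 5H5, against 3967 and 2054 CPM in parental cells, without passing the test (log2 fold change 1.16, adjusted p 0.448, edgeR). KRT17, likewise chosen after its values were seen, had 112 and 196 CPM in KO 5H5, against 1453 and 605 CPM in parental cells (log2 fold change -2.74, adjusted p 0.122, edgeR). Its libraries did not overlap, but the difference was not past the threshold. Keratins have close paralogs and pseudogenes, so reads common to several of them make these counts uncertain.

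Few glycosyltransferases were called, all of them lower. MGAT3 (chr22:39457344-39492194), which adds the bisecting N-acetylglucosamine to N-glycans, had 2 and 0 counts in KO 5H5, against 322 and 679 in parental cells, a ratio of parental cells to KO 5H5 of 644 with a 95% counting interval of 178 to 5323. GALNT16, which starts mucin-type O-glycans, had 0.172 and 0.219 CPM in KO 5H5, against 9.72 and 11.9 CPM in parental cells (log2 fold change -5.73, SE 0.79, adjusted p 0.00289, edgeR). HS3ST3A1, a 3-O-sulfotransferase of heparan sulfate, had 0.0572 and 0.219 CPM in KO 5H5, against 8.21 and 11.8 CPM in parental cells (log2 fold change -6.02, SE 0.75, adjusted p 0.00142, edgeR). B4GALNT3, an N-acetylgalactosaminyltransferase, had 0.572 and 0.438 CPM in KO 5H5, against 9.64 and 9.39 CPM in parental cells (log2 fold change -4.23, adjusted p 0.0321, edgeR). Of 40 tested glycosyltransferases, a list that does not hold the sulfotransferase, MGAT3, GALNT16 and B4GALNT3 fell and none rose, beside 0.624% of all tested genes called lower. The median over the 40 was -0.40, and 15 had a positive log2 fold change.

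Further deep falls included genes best known from neurons, a grouping made after the values were seen and not tested. DPYSL5, a collapsin response mediator of growth cones, had 0.572 and 0.0730 CPM in KO 5H5, against 84.1 and 62.7 CPM in parental cells (log2 fold change -7.96, SE 0.76, adjusted p 0.000734, edgeR). SYN2, a synaptic vesicle protein, had 0.858 and 0.292 CPM in KO 5H5, against 21.2 and 21.9 CPM in parental cells (log2 fold change -5.27, adjusted p 0.00142, edgeR). NMUR2, a receptor of neuromedin U, had 0.229 and 0.0365 CPM in KO 5H5, against 11.6 and 16.7 CPM in parental cells (log2 fold change -6.85, adjusted p 0.000772, edgeR). In these 3 genes both KO 5H5 libraries were below 1 CPM. CACNA1H, a T-type calcium channel, had 0.172 and 0.329 CPM in KO 5H5, against 3.62 and 16.7 CPM in parental cells (log2 fold change -5.27, adjusted p 0.0134, edgeR). RTN1, a reticulon of the endoplasmic reticulum, had 0.343 and 0.219 CPM in KO 5H5, against 4.37 and 18.2 CPM in parental cells (log2 fold change -5.34, adjusted p 0.00443, edgeR). The parental libraries were further apart for CACNA1H and RTN1 than for the others. KIF1A, CAMK2B and CASKIN1, which act in axonal transport and at synapses and were chosen after their values were seen, had log2 fold changes of -6.13, -4.75 and -5.10 (adjusted p 0.0321, 0.00788 and 0.00699, edgeR). KIF1A had an adjusted p of 0.199 without KO 5H5 1. Of 30 tested ion channels, 2 fell, CACNA1H among them, and none rose, beside 0.624% of all tested genes called lower. A negative log2 fold change was seen in 26 of the 30, beside 7657 of 15551 tested genes, and in 21 without parental 1 or with offsets for GC content and length. The median was -0.995, and -0.53 without parental 1. Of 45 tested axon guidance genes, DPYSL5 and SEMA6A fell and none rose, beside the same 0.624% of all tested genes, with a median of -0.52. SEMA6A no longer passed without KO 5H5 1 (adjusted p 0.121), KO 5H5 2 (0.267) or parental 1 (0.0843).

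The rest of the largest falls had varied roles. ALDH3A1, an aldehyde dehydrogenase, had 1.94 and 1.68 CPM in KO 5H5, against 60.3 and 182 CPM in parental cells (log2 fold change -6.06, SE 0.63, adjusted p 0.000734, edgeR). IDO1, which degrades tryptophan, had 0 and 1 counts in KO 5H5, against 129 and 359 in parental cells, a ratio of parental cells to KO 5H5 of 628 with a 95% counting interval of 112 to 24841. COX7A1, a subunit of cytochrome c oxidase, had 0.400 and 0.292 CPM in KO 5H5, against 22.0 and 9.16 CPM in parental cells (log2 fold change -5.49, adjusted p 0.0112, edgeR). CRABP1, a retinoic acid binding protein, had 0.801 and 0.0365 CPM in KO 5H5, against 20.04 and 9.85 CPM in parental cells (log2 fold change -5.24, adjusted p 0.0234, edgeR, and 0.0546 without KO 5H5 2). RBP4, the carrier of retinol in blood, was chosen after its values were seen and had 2.52 and 3.80 CPM in KO 5H5, against 63.5 and 141 CPM in parental cells (log2 fold change -5.01, SE 0.61, adjusted p 0.00121, edgeR). CCDC3, a secreted protein, completed the 15 largest falls with 0 and 0.219 CPM in KO 5H5, against 9.34 and 11.7 CPM in parental cells (log2 fold change -6.36, adjusted p 0.0419, edgeR).

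For 11 of the 97 lower genes neither KO 5H5 library held a single count. Their fold changes are given as lower bounds, computed with 3 counts over both KO 5H5 libraries, which cover counting error only. GALNT17, another starter of O-glycans, was at least 121-fold lower in KO 5H5, with no count there and 104 and 178 in parental cells. NPNT, an integrin ligand of basement membranes, had no count in either KO 5H5 library and 52 and 127 in parental cells, and was at least 76.7-fold lower. AMTN, a protein of enamel formation, was at least 57.9-fold lower, COBL, an actin nucleator, at least 34.7-fold, CBFA2T3, a corepressor, at least 31.7-fold, and NLGN4X, a synaptic adhesion protein, at least 31.7-fold. The choice of these 6 genes was made after seeing their values. CBFA2T3 did not pass without KO 5H5 1 (adjusted p 0.0989) or KO 5H5 2 (0.214). The noncoding gene ENSG00000259017 on chromosome 14 had the deepest fitted fall. It was at least 304-fold lower, with no count in KO 5H5 and 327 and 382 in the parental libraries. ENSG00000250920 on chromosome 4 and PAPLN-AS1 on chromosome 14 had log2 fold changes of -5.80 and -4.49 (adjusted p 0.000772 for each, edgeR). The sources used here do not say whether the counting used strand, so reads of PAPLN-AS1 and of PAPLN may not be separated.

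Promoters of the called genes were searched for sites of the factors that the study's question points to. Shown are those of fallen genes with the palindromic cAMP response element or a TCF/LEF site. That of KRT5 is added, 1 of 14 fallen genes with the short form of the element, and the other promoters with sites are not shown. RefSeq promoters on GRCh38.p14, from 250 bases before to 50 bases after the annotated start, were found for 80 of the 112 called genes with a symbol, 15 higher and 65 lower. Matches were read on both strands, and capitals mark only the kind of site named before the sequence. The promoters of HS3ST3A1 (chr17:13601880-13602179, minus strand) and TMEM59L (chr19:18612620-18612919, plus strand) held the palindromic cAMP response element TGACGTCA, 49 and 4 bases before the start.
HS3ST3A1: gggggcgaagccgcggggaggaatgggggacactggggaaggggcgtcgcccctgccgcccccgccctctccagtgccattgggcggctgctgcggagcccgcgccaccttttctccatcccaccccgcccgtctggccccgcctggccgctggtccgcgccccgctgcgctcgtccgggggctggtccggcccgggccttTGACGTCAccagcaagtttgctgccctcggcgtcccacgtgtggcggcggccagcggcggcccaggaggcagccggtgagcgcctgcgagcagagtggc
TMEM59L: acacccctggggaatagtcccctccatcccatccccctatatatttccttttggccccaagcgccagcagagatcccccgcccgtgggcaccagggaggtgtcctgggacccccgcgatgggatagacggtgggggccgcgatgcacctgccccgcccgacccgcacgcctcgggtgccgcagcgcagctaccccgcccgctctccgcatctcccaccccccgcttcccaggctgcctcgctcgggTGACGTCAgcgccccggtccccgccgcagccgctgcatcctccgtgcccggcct
The promoters of RBP4 (chr10:93601695-93601994, minus strand) and SGPP2 (chr2:222423738-222424037, plus strand) held a TCF/LEF site, ATCAAAG or TTCAAAG, in SGPP2 on the opposite strand.
RBP4: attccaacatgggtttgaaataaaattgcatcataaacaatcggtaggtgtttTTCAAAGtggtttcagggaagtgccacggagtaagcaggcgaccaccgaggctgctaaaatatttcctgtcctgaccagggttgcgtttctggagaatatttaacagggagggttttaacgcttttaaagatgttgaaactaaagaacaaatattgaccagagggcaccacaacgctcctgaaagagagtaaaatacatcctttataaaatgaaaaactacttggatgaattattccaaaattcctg
SGPP2: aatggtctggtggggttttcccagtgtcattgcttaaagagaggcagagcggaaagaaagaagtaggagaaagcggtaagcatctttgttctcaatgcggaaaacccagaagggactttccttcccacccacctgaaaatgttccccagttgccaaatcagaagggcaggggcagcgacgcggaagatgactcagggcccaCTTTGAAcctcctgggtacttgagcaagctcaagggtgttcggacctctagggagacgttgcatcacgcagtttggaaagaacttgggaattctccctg
The promoter of KRT5 (chr12:52520345-52520644, minus strand) held 1 copy of the short form of the cAMP response element, TGACG, on the opposite strand, 232 bases before the start.
KRT5: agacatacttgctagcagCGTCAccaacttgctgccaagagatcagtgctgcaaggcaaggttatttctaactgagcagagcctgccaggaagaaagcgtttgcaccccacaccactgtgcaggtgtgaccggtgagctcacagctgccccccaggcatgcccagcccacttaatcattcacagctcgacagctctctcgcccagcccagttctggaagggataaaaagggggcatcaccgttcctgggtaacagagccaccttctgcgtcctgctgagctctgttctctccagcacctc

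Shares of promoters with such sites were set beside those of all tested genes. The palindrome TGACGTCA, which contains the short form TGACG on either strand, stood in 0 of 15 promoters of higher genes and 2 of 65 of lower genes (3.08%), beside 3.22% of 11115 promoters of tested genes. The short form was in 4 of 15 (26.7%) of higher and 14 of 65 (21.5%) of lower genes, beside 33.4% of promoters of tested genes. TCF/LEF sites were in 0 of 15 and 2 of 65 (3.08%), beside 3.9%, and AP-1 sites (TGACTCA or TGAGTCA) in 0 of 15 and 4 of 65 (6.15%), beside 3.27%. The promoter of SGPP2 also held an AP-1 site, which is not marked above. TMEM59L and SGPP2, chosen for their promoters, had log2 fold changes of -4.84 and -3.69 (adjusted p 0.0234 and 0.0353, edgeR), and without KO 5H5 1 their adjusted p was 0.133 and 0.0873. A match is a stretch of letters and not a measured binding site.

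Few genes of the cAMP pathway passed the test, beside 0.116% of all tested genes called higher and 0.624% lower. Of 14 tested phosphodiesterases, only PDE9A, which is specific for cGMP, was called, with 1.49 and 1.13 CPM in KO 5H5, against 9.19 and 13.5 CPM in parental cells (log2 fold change -3.12, SE 0.60, adjusted p 0.0248, edgeR). Both KO 5H5 libraries were below both parental ones, but the call was lost without KO 5H5 1 (adjusted p 0.102) and without KO 5H5 2 (0.259). PDE4A and PDE8A, which degrade cAMP, had log2 fold changes of 0.60 and 0.71 (adjusted p 0.753 and 0.739, edgeR). None of 32 tested genes for cyclases, PKA, PKG, EPAC and CREB factors was called, and their median was 0.04. The member with the smallest p, RAPGEF3, which encodes the cAMP sensor EPAC1, had 52.1 and 47.9 CPM in KO 5H5, against 114 and 150.02 CPM in parental cells (log2 fold change -1.40, adjusted p 0.224, edgeR). None of 15 tested genes that respond to cAMP and CREB was called. JUNB among them had 47.7 and 54.4 CPM in KO 5H5, against 172 and 126 CPM in parental cells (log2 fold change -1.55, adjusted p 0.149, edgeR). The median over those 15 was -0.13, and -0.41 without parental 1. PRKACA, the main catalytic subunit of PKA, was listed at 0 counts in all 4 libraries, as was the Wnt coreceptor LRP6, so a 0 in this table is not read as absence of a transcript.

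β-catenin and its listed target genes gave no calls. CTNNB1, which encodes β-catenin, had 57.6 and 83.9 CPM in KO 5H5, against 17.9 and 37.8 CPM in parental cells (log2 fold change 1.34, SE 0.45, adjusted p 0.325, edgeR). The libraries did not overlap, but the test was not passed. Of 23 tested β-catenin and TCF target genes 0 were called, beside 0.116% of all tested genes called higher and 0.624% lower. A negative log2 fold change was found in 19, beside 7657 of 15551 tested genes. The median of the 23 was -0.71, or -0.60 without parental 1. MYC, CCND1 and BIRC5 had log2 fold changes of -0.19, -0.71 and 0.03 (adjusted p 0.925, 0.688 and 0.993, edgeR). PORCN, which lipidates Wnt proteins and had the smallest p of that list, had 46.4 and 35.3 CPM in KO 5H5, against 106 and 128 CPM in parental cells (log2 fold change -1.52, adjusted p 0.201, edgeR). Of 37 tested Wnt ligands, receptors and core genes 2 fell (5.41%) and none rose, beside 0.624% of all tested genes called lower. Without KO 5H5 2 none of the 37 was called. SFRP1, a secreted Wnt antagonist, had 0.915 and 0.584 CPM in KO 5H5, against 7.69 and 8.09 CPM in parental cells (log2 fold change -3.41, SE 0.56, adjusted p 0.0105, edgeR, and 0.151 without KO 5H5 2). WLS, the carrier that brings Wnt proteins to the cell surface, had 1.14 and 2.15 CPM in KO 5H5, against 11.98 and 12.6 CPM in parental cells (log2 fold change -2.88, SE 0.53, adjusted p 0.0215, edgeR). Its call was lost without KO 5H5 1 (adjusted p 0.301) and without KO 5H5 2 (0.0569).

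The lists of RAS pathway genes gave no calls either, beside 0.116% of all tested genes called higher and 0.624% lower. Outside these lists, DUSP9, of the DUSP family, and the kinase gene RPS6KA2 were called lower. NRAS, which encodes a RAS GTPase, had 15.9 and 25.9 CPM in KO 5H5, against 7.38 and 11.4 CPM in parental cells (log2 fold change 1.15, adjusted p 0.477, edgeR). The 30 tested genes of RAS, RAF, MEK and ERK had a median of 0.27, and the 22 tested feedback and output genes of ERK a median of -0.53. The ERK feedback inhibitor SPRY1 had no count in either KO 5H5 library and 18 and 89 counts in parental 1 and 2, which is at least 45.9-fold lower, with an adjusted p of 0.0617 (edgeR). DUSP6, a phosphatase induced by ERK, was listed at 0 counts in both KO 5H5 libraries and at 0 and 1 in parental cells. Of 41 tested receptor tyrosine kinases and ligands on the list 0 were called, while EPHA10, not on it, was called lower. RET had 0.915 and 0.657 CPM in KO 5H5, against 8.74 and 7.63 CPM in parental cells (log2 fold change -3.38, adjusted p 0.076, edgeR).

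Lists of adhesion, mesenchymal and matrix genes held few calls, and their medians were not tested. Over all tested genes 0.116% were called higher and 0.624% lower, and 7884 of 15551 had a positive log2 fold change. The 18 tested integrins had a median log2 fold change of 0.75, with 15 positive and 0 called, the 31 mesenchymal genes a median of 0.72 with 0 called, and the 24 targets of SRF and YAP a median of 0.64, with 20 positive and 0 called. Without parental 1 these medians were 0.47, 0.43 and 0.47, beside 0.01 over all tested genes. TGFBI, a matrix protein induced by TGF-β, had 1331 and 1596 CPM in KO 5H5, against 476 and 372 CPM in parental cells (log2 fold change 1.79, adjusted p 0.146, edgeR). MYL9, a light chain of contractile myosin, had 133 and 178 CPM in KO 5H5, against 57.5 and 38.2 CPM in parental cells (log2 fold change 1.70, adjusted p 0.155, edgeR). For both genes the lines did not overlap. VIM and FN1, markers of mesenchymal cells, had log2 fold changes of -0.25 and 0.90 (adjusted p 0.915 and 0.700, edgeR). CDH1, which encodes E-cadherin, and EPCAM had 0.91 and -2.15 (adjusted p 0.851 and 0.435, edgeR). Of 39 tested epithelial genes only AP1M2 was called, and of 48 collagens and matrix glycoproteins only the microfibril gene FBN2, which fell by 5.81 (adjusted p 0.0419, edgeR). With offsets for GC content and length FBN2 was not called (adjusted p 0.0525), and 0 genes of that list were.

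Of the listed proliferation genes none was called. The 47 tested genes of mitosis and G2/M had a median of 0.50, with 41 positive, beside 7884 of 15551 tested genes. The 40 genes of DNA replication had a median of 0.02. Without parental 1 the medians were 0.45 and -0.20. ANLN, which organises the cytokinetic ring, had 60.8 and 66.7 CPM in KO 5H5, against 11.1 and 15.5 CPM in parental cells (log2 fold change 2.26, adjusted p 0.0648, edgeR). Its libraries did not overlap. Among 38 tested genes of drug transport and aldehyde dehydrogenases, CYP24A1 rose and ALDH3A1 and ABCA3 fell, the last a lipid transporter with 1.89 and 0.840 CPM in KO 5H5, against 18.0 and 24.9 CPM in parental cells (log2 fold change -3.997, adjusted p 0.00295, edgeR). The Notch list held 1 call of 17, HES2, with 2.74 and 4.05 CPM in KO 5H5, against 19.97 and 33.3 CPM in parental cells (log2 fold change -2.96, adjusted p 0.00699, edgeR). HSPB8 was the only call among 30 stress response genes and chaperones and SPANXB1 the only one among 4 tested cancer-testis genes. Beside these counts, 0.116% of all tested genes were called higher and 0.624% lower. The lists of interferon-stimulated genes (34 tested), NF-kB targets (24), HLA genes (15), p53 targets (23), BCL2 family genes (28), cholesterol synthesis (29), hypoxia and glycolysis (30), matrix proteases (30), TGF-β and BMP genes (30), HOX genes (24) and mitochondrial genes (13) held 0 calls by edgeR. These lists do not cover every gene of a class. Called genes outside them, such as IDO1 and TM7SF2, both lower, are not counted.

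**Figure D3:**
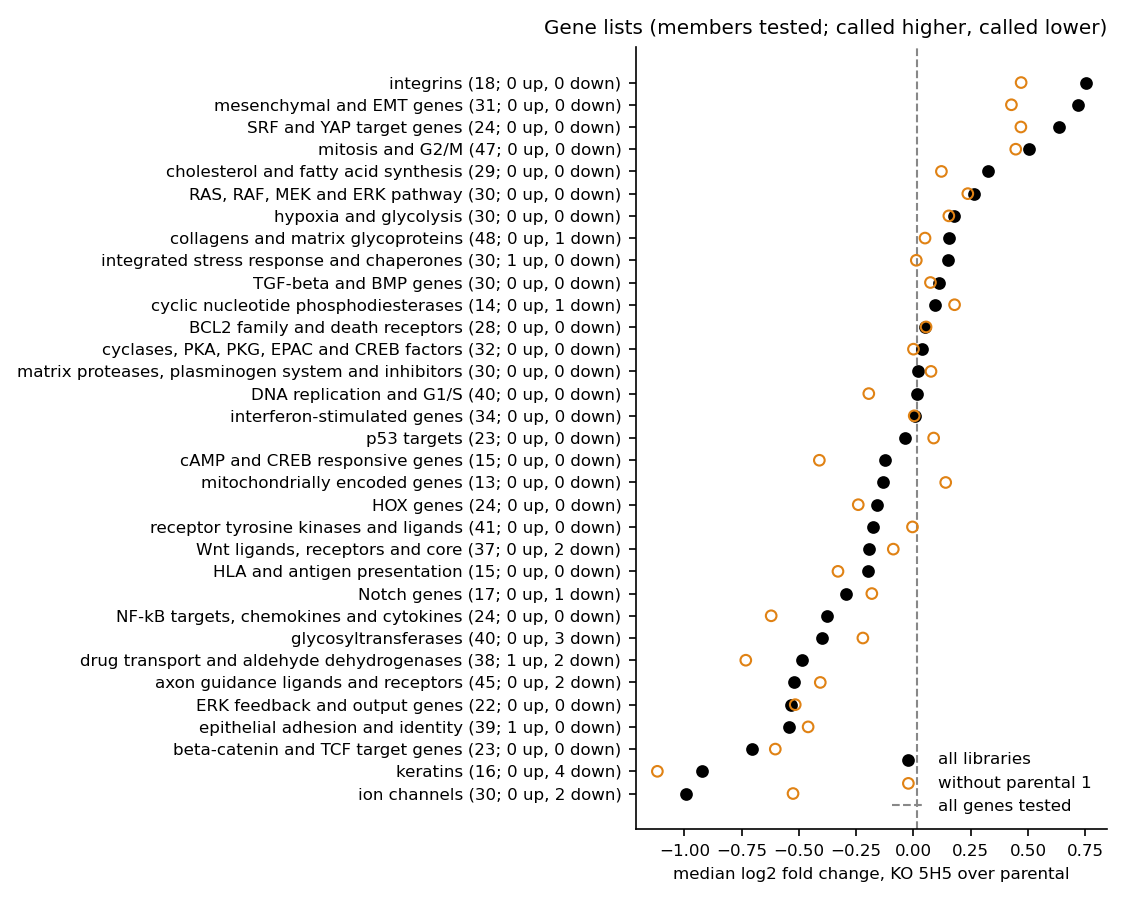
Median log2 fold change of KO 5H5 over parental cells for each gene list with at least 10 tested members, from all libraries (black) and without parental 1 (orange circles), with the median of all tested genes as a dashed line. Labels give members tested and called. Medians from all libraries run from -0.995 for ion channels to 0.75 for integrins, and no list held more than 4 calls.

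Markers of the ovarian lineage were present in both lines. PAX8, a lineage factor of Müllerian epithelium, had 255 and 256 CPM in KO 5H5, against 349.7 and 351 CPM in parental cells, and of 12 tested markers of Müllerian tissue and ovarian carcinoma 0 were called. The summed level of 8 fibroblast markers was 924 and 2007 CPM in KO 5H5, against 141 and 128 CPM in parental cells. Most of it was COL1A1, the α1 chain of type I collagen, with 914 and 1987 CPM in KO 5H5, against 126 and 124 CPM in parental cells (log2 fold change 3.54, SE 0.97, adjusted p 0.166, edgeR). PDGFRB, a growth factor receptor of mesenchymal cells, had 8.46 and 17.7 CPM in KO 5H5, against 2.41 and 1.90 CPM in parental cells (log2 fold change 2.60, adjusted p 0.149, edgeR). Of the 5 tested fibroblast markers 0 were called, beside 0.116% of all tested genes called higher. With only the 4 libraries 3 of these markers were tested and 2 called higher, beside 37 of 13849 tested genes. The median log2 fold change of the 5 was 0.98. It ran from 0.71 without KO 5H5 2 to 2.80 without parental 1 when 1 library was left out. COL3A1 and FAP, also among the listed fibroblast markers, had no count in either KO 5H5 library, DCN had 0.0572 and 0 CPM there, and LUM 0 and 0.146 CPM. In parental 1 these 4 genes had 1.13 to 3.92 CPM, and in parental 2 at most 0.231 CPM. The part of such markers in the mesenchymal and matrix values above was not tested. Summed markers of haematopoietic, endothelial and neuronal cells stayed at or below 2.37 CPM in KO 5H5 and 5.58 CPM in parental cells.

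The other lines were set beside KO 5H5 by direct contrasts. Against EV 1B9, KO 5H5 differed in 681 genes (4.38%), 419 higher (2.69%) and 262 lower (1.68%), and against KO 2F4 in 61 genes (0.392%), 36 higher (0.231%) and 25 lower (0.161%). With offsets for GC content and length the counts were 913 against EV 1B9 and 127 against KO 2F4. These contrasts share the KO 5H5 libraries with the comparison to parental cells, so values of single genes are set side by side. KRT14, MGAT3 and DPYSL5 were low in both knockout clones and high in both lines without the knockout. KO 2F4 had 0.0981 and 0 CPM of KRT14, 0.392 and 0 CPM of MGAT3 and 0 and 0 CPM of DPYSL5. EV 1B9 had 1773 and 2406 CPM of KRT14, 52.2 and 56.0 CPM of MGAT3 and 96.7 and 140.2 CPM of DPYSL5, and KO 5H5 was lower than EV 1B9 in each (adjusted p 2.19e-05, 5.53e-05 and 4.06e-05, edgeR). MLLT11 had 83.1 and 51.1 CPM in KO 2F4 and 3.30 and 2.14 CPM in EV 1B9. KO 5H5 was above EV 1B9 (log2 fold change 4.30, adjusted p 0.000195, edgeR) and did not differ from KO 2F4 past the threshold (-0.31, adjusted p 0.860, edgeR).

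Other genes that fell in KO 5H5 were also low in the empty vector clone. HCLS1, an actin regulator of blood cells chosen after its values were seen, had 0.114 and 0.219 CPM in KO 5H5 and 0 and 0.0403 CPM in EV 1B9, against 7.01 and 11.5 CPM in parental cells. It fell against parental cells (log2 fold change -5.71, adjusted p 0.0234, edgeR, and 0.0882 without KO 5H5 1). RBP4 had 7.16 and 16.1 CPM in EV 1B9, and the direct contrast of KO 5H5 with that clone was -1.87 (adjusted p 0.0704, edgeR). CRABP1 had 1.08 and 1.21 CPM in EV 1B9 (contrast -1.54, adjusted p 0.409, edgeR). A p above the threshold does not show that KO 5H5 and EV 1B9 are alike for these genes. KRT81 had 0.0270 and 0 CPM in EV 1B9, and KO 5H5 lay above EV 1B9 by 8.18 on the log2 scale (adjusted p 8.02e-05, edgeR) while it lay below parental cells.

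For other genes KO 5H5 differed from KO 2F4 as well. HS3ST3A1 had 11.7 and 9.61 CPM in KO 2F4, which overlaps the parental values, and KO 5H5 was lower than KO 2F4 by a log2 fold change of -6.11 (adjusted p 0.00334, edgeR). TMEM45B, a membrane protein chosen after its values were seen, had 0.343 and 0.621 CPM in KO 5H5, against 11.5 and 6.12 CPM in KO 2F4 and 5.42 and 5.73 CPM in parental cells. It differed from parental cells (-3.49, adjusted p 0.0246, edgeR) and from KO 2F4 (-4.15, adjusted p 0.0188, edgeR). Without KO 5H5 1 the adjusted p was 0.221 against parental cells and 0.0516 against KO 2F4. MXRA8 and EDIL3, high in KO 5H5, had 2.26 and 2.26 CPM and 0.0490 and 0.437 CPM in KO 2F4. KO 5H5 was above KO 2F4 by 5.41 and 6.91 on the log2 scale (adjusted p 0.000467 and 0.0099, edgeR).

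**Figure D4:**
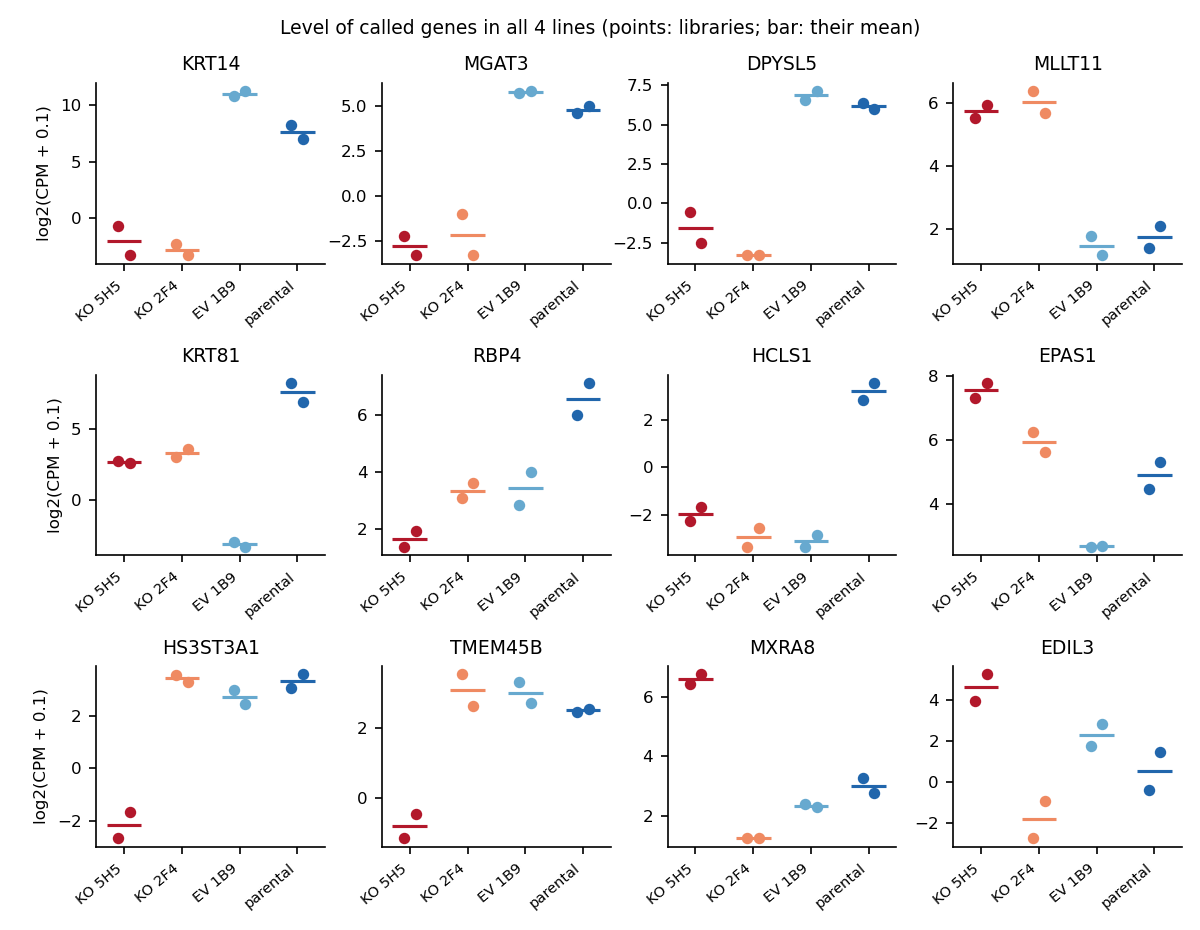
Level of 12 called genes in each library of KO 5H5, KO 2F4, EV 1B9 and parental cells as log2(CPM + 0.1), with a bar at the mean of 2 libraries. The upper row shows genes with both knockout clones on 1 side, the middle row genes where EV 1B9 is also away from parental cells, and the lower row genes where KO 5H5 differs from KO 2F4.

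By chromosome, medians of KO 5H5 over parental cells stayed within 0.4 of 0. They were lowest on chromosome 11 (-0.37 over 863 genes, 7 lower calls) and chromosome 22 (-0.35 over 388 genes, 1 lower call). With offsets for GC content and length these medians were -0.29 and -0.20, and the lowest were those of chromosomes 13 (-0.36), 14 (-0.35) and 4 (-0.31). Chromosomes and windows differ in how many genes were tested, and over all tested genes 0.624% were called lower. Chromosome 4 had the most lower calls, 10 of 572 tested genes, with a median of -0.17 without the offsets. Its first 10 Mb held 6 of them, more than any other of 257 windows of that size, and the 94 tested genes there had a median of -0.57. That median was -0.34 with the offsets, and -0.10 in KO 2F4 and 0.15 in EV 1B9 over parental cells. Among them were RNF212, ZFYVE28, DOK7, NSG1 and SORCS2, chosen after their values were seen. DOK7, an adaptor of the muscle kinase MuSK, had 6.80 and 7.99 CPM in KO 5H5, against 96.0 and 121 CPM in parental cells (log2 fold change -3.87, SE 0.45, adjusted p 0.000772, edgeR). ZFYVE28 lost the call without KO 5H5 1 (adjusted p 0.123), KO 5H5 2 (0.0778) or parental 1 (0.107). In the opposite direction, the first 10 Mb of chromosome 17 had a median of 0.64 over 139 genes, 80.6% of them positive, with 0 calls. The median there was 0.62 in KO 2F4 and -0.63 in EV 1B9 over parental cells. Medians of KO 2F4 and EV 1B9 were not computed with the offsets. How much of them follows the GC correlations of the libraries was not tested.

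**Figure D5:**
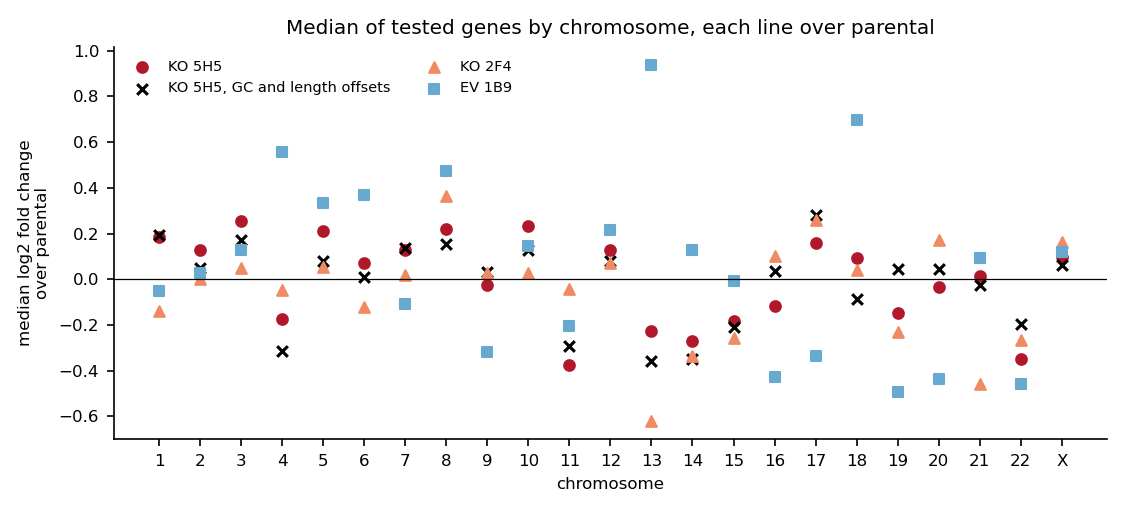
Median log2 fold change over parental cells of the tested genes (vertical) by chromosome (horizontal), for KO 5H5 without (red) and with (crosses) offsets for GC content and length, KO 2F4 (triangles) and EV 1B9 (squares). KO 5H5 without offsets stays between -0.37 on chromosome 11 and 0.26 on chromosome 3, and EV 1B9 between -0.49 on chromosome 19 and 0.94 on chromosome 13. Values of KO 2F4 and EV 1B9 are without the offsets.

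By log2 differences the 2 passages of KO 5H5 were closer to each other than those of parental cells, of which parental 1 stood apart as described above. How much of the gap comes from that library was not tested. The Spearman correlation of the 2 libraries was also higher in KO 5H5 (0.971, against 0.939 in parental cells). A chi-square of counts per degree of freedom went the other way, with 101.9 in KO 5H5 and 74.1 in parental cells. That measure uses unscaled counts and grows with depth. Gene counts were 20601319 and 25525971 in KO 5H5, against 15483683 and 21482210 in parental cells, so it cannot rank the lines by spread. The median absolute log2 difference between libraries of a line was 0.358 in KO 5H5 and 0.502 in parental cells, and 10 tested genes (0.0643%) differed over 4-fold between the KO 5H5 libraries, against 191 (1.23%) between the parental ones, on values with 1 CPM added. The widest gap in KO 5H5 was CFTR, a chloride channel chosen after its values were seen, with 0 and 687 counts in KO 5H5, against 3 and 6 in parental cells. Only KO 5H5 2 was above parental cells, and the gene was not called (log2 fold change 5.60, SE 1.93, adjusted p 0.351, edgeR). Without KO 5H5 2 the log2 fold change was -5.43, and without KO 5H5 1 it was 6.64 (adjusted p 4.21e-06). SLPI, a protease inhibitor of mucosal secretions likewise chosen after its values were seen, had 13.7 and 1.64 CPM in KO 5H5, against 368 and 122 CPM in parental cells. Both KO 5H5 libraries lay below both parental ones despite that spread, and it fell by 5.01 (SE 0.87, adjusted p 0.0147, edgeR).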

How the data were processed

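RNA of 8 SKOV3 cultures was prepared with a directional kit and sequenced paired end, per the labels. The authors deposited 1 table of raw counts per gene from HTSeq for all libraries, with 67008 genes and 5 summary lines that stayed out of library sizes and tests (24.1% to 44.6% of the counted reads of the 4 libraries compared). Tools named without a role, per the submitters' processing notes, are STAR 2.7.3a and bcl2fastq 2.18.0.12, then DESeq2 1.26.0 and HTSeq 0.11.3, with GRCh38 as the build. The annotation release and strand setting: not given in the sources used here. All columns matched a sample by title, with replicate 2 the library whose title ends in UnTx, a suffix the labels do not explain. Symbols were found for 90.4% of identifiers, and coordinates come from GENCODE 29.

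From these counts, edgeR 4.0.16 in R 4.3.3 was run with TMM scaling, filterByExpr (minimum count 10, total 15), 1 mean per line over all 8 libraries and the quasi-likelihood test. P-values were adjusted after Benjamini-Hochberg over 15551 genes, with a threshold of 0.05, and the SE is the log2 fold change over the root of the F statistic. The 4 residual degrees of freedom and a common biological coefficient of variation of 0.514 limit what can be called. Alternatives were RLE scaling, no filter, DESeq2 1.42.0, only the 4 libraries, the title suffix as a block, offsets for GC content and length (natural splines with 5 degrees of freedom), and leaving out each library. Offsets combined with fewer libraries were added after the data were seen. Where a line kept 1 library, it was assumed to vary like the others.

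The rule for named genes covered PDE10A and, by size of change, 15 rises and 15 falls of called protein-coding genes that averaged at least 5 CPM over the 4 libraries without overlap of the lines, the 3 largest such noncoding changes each way, up to 4 called members of each of 39 gene lists or else the member with the smallest p, and 14 genes always. The comparison, the lists (1181 of 1182 symbols matched) and the tests were chosen with earlier results of these data known. Ratios and bounds cover counting error only. Some genes covered by the rule are not reported here.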

Additional observations from a re-analysis of the deposited data

Results flagged for a closer look

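Several genes were called against parental cells and also differed between the knockout clones by the direct test of KO 5H5 against KO 2F4 (edgeR, Benjamini-Hochberg adjustment). KO 5H5 was above KO 2F4 in EDIL3 (log2 fold change 6.91), MXRA8 (5.41) and KRT5 (5.18, adjusted p 0.0274). For KRT5 both clones lay below parental cells, with 4.003 and 6.57 CPM in KO 5H5 and 0.245 and 0 CPM in KO 2F4. KO 5H5 was below KO 2F4 in HS3ST3A1 (-6.11), TMEM45B (-4.15), ABCA3 (-3.30, adjusted p 0.0192) and SPANXB1 (-2.64, adjusted p 0.0441). SPANXB1 was above parental cells in both clones, with 23.7 and 35.7 CPM in KO 5H5 and 151 and 220.3 CPM in KO 2F4. The same direct test gave -7.40 (adjusted p 0.00263) for RASIP1, a Rap1 and Ras interacting protein, with 0.858 and 0.110 CPM in KO 5H5, against 40.7 and 112 CPM in KO 2F4 and 9.42 and 7.82 CPM in parental cells. It gave -7.48 (adjusted p 0.0419) for NPNT and -10.64 (adjusted p 0.0044) for PLVAP, a protein of endothelial fenestrae, and both had 0 counts in KO 5H5, so these fitted values are no bounds. TMEM45B, RASIP1, NPNT and PLVAP were chosen after seeing their values. Without KO 5H5 1 the difference between clones was not called for SPANXB1 (adjusted p 0.0697) and TMEM45B (0.0516), and without KO 5H5 2 not for ABCA3 (0.0984) and NPNT (0.140).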

How the results depend on the processing

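The 115 genes called against parental cells became 259 without the filter, 363 with DESeq2, 194 with only the 4 libraries, and 95 to 741 when 1 library was left out. With offsets for GC content and length and also fewer libraries the counts were 184 (only the 4 libraries), 837 (without parental 2) and 194 (without KO 5H5 1). All 115 were among those called without the filter and with DESeq2, and 110 among the 741. Against EV 1B9 the 681 calls became 1375 with DESeq2 and 469 to 1125 with 1 library left out. Against KO 2F4 the 61 calls became 272 without the filter, 348 with DESeq2, 127 with the offsets, and 59 to 381 with 1 library left out. PDE10A against parental cells had log2 fold changes of -3.96 without the filter, -4.17 with DESeq2 and -4.64 to -2.87 with 1 library left out, and with the offsets -5.02 without parental 2, -4.15 without KO 5H5 1 and -4.70 without KO 5H5 2. Deviations of libraries with the same title suffix correlated most between KO 5H5 and parental cells, the lines compared here (r 0.401). Between the other pairs of lines r ran from -0.319 to 0.200. With 2 libraries per line these values cannot decide whether the suffix pairs libraries. With the suffix as a block, 88 genes were called against parental cells and 35 against KO 2F4, or 109 with the offsets too. The block ended the calls against parental cells of CCDC3 (adjusted p 0.0854, edgeR), KRT6A (0.0506), B4GALNT3 (0.0647), FBN2 (0.0509), MYO15B (0.0841), NRSN2 (0.0703), KIF1A (0.0620), SGPP2 (0.0703), ZFYVE28 (0.0720) and CBFA2T3 (0.0879), against EV 1B9 that of PDE10A (0.0559), and against KO 2F4 those of SPANXB1 (0.0822) and NPNT (0.0575). CFTR turned its direction without KO 5H5 2 in all 3 comparisons, to -5.43 from 5.60 against parental cells and to -6.52 from 4.59 against KO 2F4, neither called, and against EV 1B9 with a log2 fold change of 9.20 from all libraries and -1.80 to 10.13 with 1 library left out, lowest without KO 5H5 2, which held all its counts in that clone. Of the other values of named genes against parental cells under alternatives, 1585 kept their side of the threshold, 105 passed it newly and 94 no longer passed. The cause of these changes was not tested. A single library left out was always of KO 5H5 or parental cells. How the contrasts with EV 1B9 and KO 2F4 depend on single libraries of those clones was therefore not tested. Depth limits genes with few counts, where a value of 0 allows up to 3 counts.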
